A study of Mus musculus with 6 samples.

Results

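NF-kB is a family of transcription factor dimers built from the subunits encoded by Nfkb1, Nfkb2, Rel, Rela and Relb. In resting cells inhibitors of the IkB type hold the dimers in the cytoplasm, and signals from cytokine and microbial receptors remove them through the IKK kinases. Several genes that the dimers switch on encode their own brakes, so the transcripts of those inhibitors are widely used as a readout of the pathway. In colon, the pathway acts in epithelium as well as in macrophages and lymphocytes. The 10 genes described here are the 5 subunit genes and 5 feedback genes, Nfkbia, Nfkbiz, Bcl3, Birc3 and Tnfaip3. They were chosen by symbol from a table of 21374 genes, all 10 were found, and all 10 passed the filter on low values.

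The libraries came from distal colon of male C57BL/6 mice, from tissue beside tumours that had been cut away. Some mice carry the label wild type and others Otud1-/-, a knockout of a deubiquitinase gene, and all of them received the carcinogen azoxymethane by intraperitoneal injection at 6 weeks of age. Both then had 3 cycles of 1.5% dextran sulfate sodium, an agent that damages the lining of the colon, for 4 days each with 14 days of water after each. Colon was taken on day 81, and the age is given as 18 weeks. There were 3 libraries per label, and no untreated mice were analysed here. Nothing in the labels ties each library to its own animal, and p-values may therefore reflect technical spread among libraries.

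The values are normalised read counts, that is, reads of a gene divided by a size factor of the library. Recovered reads ranged from 15300937 to 19406407 per library. Otud1 itself went against the labels: it had 111, 45.1 and 48.9 normalised reads under the wild type label but 141, 150 and 208 under the Otud1-/- label (limma, log2 change 1.37 ± 0.35 SE, adjusted p = 0.0934). The deleted part of the gene is not given in the sources used here. Wild type libraries and Otud1-/- libraries below are libraries so labelled, and a change is Otud1-/- minus wild type on the scale of log2(value + 1). On the first principal component (38.8% of variance) all wild type libraries were negative and all Otud1-/- libraries positive. Wild type 1 and Otud1-/- 1 stood apart, at -86.5 and 83.3. The remaining wild type libraries lay at -22.0 and -25.8, and the remaining Otud1-/- libraries at 28.2 and 22.7. Epithelial markers were abundant in all 6 libraries (lowest value of any of 15 markers 836), and smooth muscle markers were present throughout.

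Promoter windows are shown because feedback genes are known targets of NF-kB, and the letters let a reader see the candidate sites beside the values. RefSeq windows of 250 bases before the start (GRCm38.p6) were found for 7 of the 10 genes, namely Nfkb2, Rel, Rela, Nfkbia, Bcl3, Birc3 and Tnfaip3, 10 windows in all. The motif searched was GGG, any 3 bases and then TTCC, on both strands, so a site on the opposite strand reads GGAA, any 3 bases and then CCC. It was found in 7 of the 10 windows, at least once for Nfkb2, Rel, Nfkbia and Tnfaip3 and not in the windows of Rela, Bcl3 and Birc3, against 4.65% of all 32851 promoter windows of that length. A wider motif, GGG, any 5 bases and then CC, which takes in every match of the first motif, was in all 10 and in 45.8% of all windows. The 7 windows belong to 4 genes, and windows of the same gene are not independent. Because known targets are among the genes chosen, the share of windows is not a test of enrichment. A match is a description of letters, not evidence of binding. The windows of Nfkbia, Rel and Rela follow, 5′ to 3′ on the strand of the gene, with capitals marking the first motif and with the bases inside the annotated gene left off.
Nfkbia, minus strand, chr12:55492648-55492897: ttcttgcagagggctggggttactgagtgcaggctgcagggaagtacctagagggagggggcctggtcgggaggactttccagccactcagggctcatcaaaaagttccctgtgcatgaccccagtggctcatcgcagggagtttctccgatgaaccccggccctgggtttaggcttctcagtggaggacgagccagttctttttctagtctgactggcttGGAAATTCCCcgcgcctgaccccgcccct
Rel, minus strand, chr11:23770971-23771219: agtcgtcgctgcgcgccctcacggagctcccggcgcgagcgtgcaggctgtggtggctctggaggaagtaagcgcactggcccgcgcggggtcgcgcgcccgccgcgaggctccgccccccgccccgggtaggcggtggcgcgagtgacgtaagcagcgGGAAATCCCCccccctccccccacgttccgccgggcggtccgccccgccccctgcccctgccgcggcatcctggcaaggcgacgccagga
Rela, plus strand, chr19:5637291-5637482: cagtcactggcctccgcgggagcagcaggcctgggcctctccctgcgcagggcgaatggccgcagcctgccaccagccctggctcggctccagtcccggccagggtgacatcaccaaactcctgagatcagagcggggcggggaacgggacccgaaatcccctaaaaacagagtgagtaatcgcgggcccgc

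For Nfkb2 and Tnfaip3 only sites are shown, each with 10 bases on either side, since their windows lie wholly inside the annotated genes except for 3 bases of the first Tnfaip3 window. Of their 6 sites, the 3 in the first window of each gene are printed. The others lay 236 and 225 bases before the start in the other Nfkb2 windows and 90 bases before it in the second Tnfaip3 window. The first Nfkb2 window held a pair of matches, 38 and 11 bases before the start, and the first Tnfaip3 window held 1 match, 12 bases before it. The Nfkbia site lay 29 bases and the Rel site 91 bases before the start.
Nfkb2, plus strand, chr19:46304689-46304718: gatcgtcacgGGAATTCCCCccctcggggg
Nfkb2, plus strand, chr19:46304716-46304745: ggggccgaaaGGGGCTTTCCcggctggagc
Tnfaip3, minus strand, chr10:19015403-19015432: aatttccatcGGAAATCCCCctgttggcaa

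The comparison between the labels asks whether transcripts of the NF-kB core and of the 5 feedback genes differ in tumour-adjacent colon. Not every feedback gene is only a brake, since the product of Nfkbiz also helps switch on NF-kB genes. Nfkbiz was the 1 member called and it fell to 63.0% of its wild type level. Nfkbia, Birc3, Rel and Nfkb2 had values that did not overlap between the labels, all lower in the libraries labelled Otud1-/-, but they missed the threshold. Rela differed by -0.069 on the log2 scale. In bulk tissue such as this, fewer cells of a type and less RNA per cell cannot be told apart. All 10 log2 changes were negative, where 48.3% of the 21281 tested genes had negative changes. The median change of the 10 was -0.36, against 0.017 over all tested genes. The call rate is 0.667% of tested genes for falls (limma, adjusted p under 0.05) and 0.282% for rises, and 0 members were higher. Groups did not overlap, with lower values in the libraries labelled Otud1-/-, for 5 of 10 members and for 13.3% of tested genes. At an unadjusted p under 0.05, 5 of 10 members were lower, against 9.97% of tested genes.

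**Figure D1:**
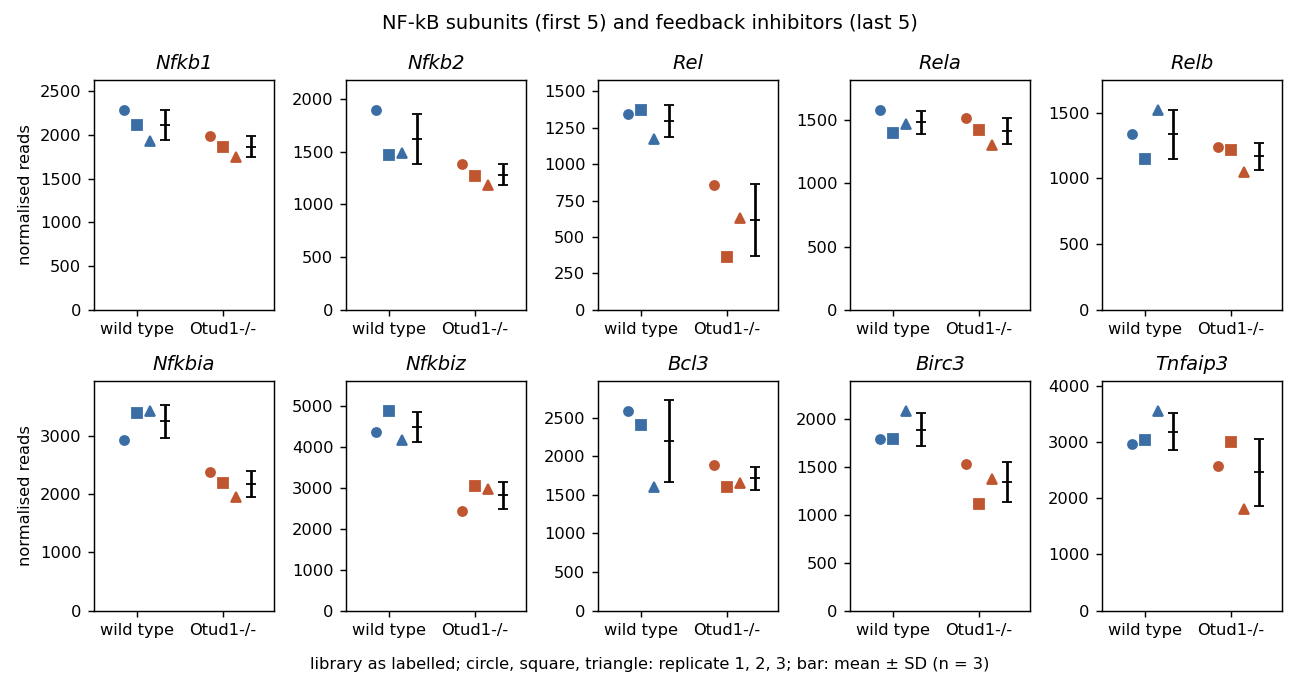
Normalised reads (y axis, from 0) of the 10 genes in each library, with points for the 3 libraries of each label and bars for mean ± SD. The groups do not overlap for Nfkb2, Rel, Nfkbia, Nfkbiz and Birc3, and they overlap for the other five.

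Among the subunits, Rel had the widest difference. Rel encodes c-Rel, a subunit with a transactivation domain that is prominent in lymphocytes and myeloid cells (ENSMUSG00000020275.9, chromosome 11, 23736847 to 23770970, minus strand). It had 1346, 1373 and 1174 normalised reads in the wild type libraries and 855, 361 and 630 in the Otud1-/- libraries. The lowest wild type library lay above the highest Otud1-/- library, and the spread was wider under the second label (SD of log2 values 0.63 against 0.12). The mean went from 1298 ± 108 (SD, n = 3) to 615 ± 247, a log2 change of -1.16 ± 0.29 SE with a 95% interval of -1.86 to -0.46 (limma, adjusted p = 0.111). Rel was called in 4 of 20 alternatives: by DESeq2 on the recovered reads (log2 change -1.08, adjusted p = 0.00495), with sample weights (limma, adjusted p = 0.0442), without Otud1-/- 1 (-1.44, limma, adjusted p = 0.0301) and without Otud1-/- 2 (-0.82, limma, adjusted p = 0.0474), within a range of 0.00495 to 0.300 over the 20. DESeq2 called 3 members, Nfkbiz, Nfkbia and Rel, all lower, against 4.66% of the genes it tested.

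Rela, which encodes the main transactivating subunit of the classical dimer, lay at the other end. Its counts were 1581, 1397 and 1472 under the wild type label and 1515, 1424 and 1306 under Otud1-/- (ENSMUSG00000024927.7, chromosome 19, 5637483 to 5648130, plus strand). The ranges overlapped, with wild type 1 above and Otud1-/- 3 below the range of the other label. The log2 change was -0.069 ± 0.11 SE, and its 95% interval of -0.32 to 0.18 bounds the difference without showing that there was none (limma, adjusted p = 0.774). Nfkb1, whose product is processed into the DNA-binding partner of the Rela protein, had 2287, 2113 and 1936 against 1985, 1861 and 1747 (ENSMUSG00000028163.17, chromosome 3, 135584655 to 135691547, minus strand). Its groups overlapped by a narrow margin, since wild type 3 lay below Otud1-/- 1 (log2 change -0.18 ± 0.11 SE, limma, adjusted p = 0.412).

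In the alternative pathway, the Nfkb2 precursor is processed after lymphotoxin or CD40-type signals and pairs with the Relb protein. Both subunit genes had negative changes and neither was called. Nfkb2 had 1897, 1472 and 1492 normalised reads against 1384, 1272 and 1187, with all Otud1-/- libraries below all wild type ones (ENSMUSG00000025225.14, chromosome 19, 46304320 to 46312385, plus strand). The change was -0.33 ± 0.13 SE (limma, adjusted p = 0.213). Exons of Nfkb2 overlap exons of Psd on the opposite strand, which had a mean of 848 normalised reads, and the strand setting of the counting is not given, so reads of the pair may be mixed. Relb had 1339, 1146 and 1522 against 1239, 1217 and 1046 (ENSMUSG00000002983.17, chromosome 7, 19606217 to 19629438, minus strand). Its groups overlapped (log2 change -0.19 ± 0.13 SE, limma, adjusted p = 0.472).

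Among the feedback genes, Nfkbiz fell. It encodes IkB zeta, a nuclear IkB protein that is induced by microbial and cytokine signals and helps switch on a secondary set of NF-kB genes (ENSMUSG00000035356.16, chromosome 16, 55811375 to 55838899, minus strand). Under the wild type label it had 4384, 4894 and 4189 normalised reads, and under the Otud1-/- label 2446, 3046 and 2987. All 3 wild type libraries lay above all 3 Otud1-/- libraries, and Otud1-/- 1 was the lowest. The mean went from 4489 ± 364 to 2826 ± 331 (SD, n = 3), a log2 change of -0.67 ± 0.13 SE (95% interval -0.96 to -0.39, limma, adjusted p = 0.0493). The value lies just inside the threshold: the call was kept without Otud1-/- 1 (adjusted p = 0.0486) or 2 (0.0437) and lost when any wild type library was left out (0.152, 0.154 and 0.173 by limma for the omission of 1, 2 and 3) and without Otud1-/- 3 (0.0860). Over all 20 alternatives it was called in 5, was negative in 20, and had adjusted p-values of 0.00125 to 0.621.

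Nfkbia encodes IkB alpha, the classical cytoplasmic inhibitor that is resynthesised after each round of activation (ENSMUSG00000021025.8, chromosome 12, 55489410 to 55492647, minus strand). It had 2932, 3405 and 3440 normalised reads against 2390, 2190 and 1954. The groups did not overlap, and the wild type library nearest to the other label was wild type 1. The mean went from 3259 ± 284 to 2178 ± 219 (SD, n = 3), 66.8% of wild type, a log2 change of -0.58 ± 0.12 SE (95% interval -0.86 to -0.31, limma, adjusted p = 0.0601). It was called in 4 of 20 alternatives, by DESeq2 (adjusted p = 0.00546), with sample weights (limma, 0.0207), when Otud1-/- 1 was left out (-0.65, limma, 0.0339) and when wild type 1 was left out with it (-0.73, limma, 0.0271), and the range was 0.00546 to 0.858.

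Birc3 encodes a ubiquitin ligase of the tumour necrosis factor receptor complex that protects cells from death and restrains the alternative pathway (ENSMUSG00000032000.17, chromosome 9, 7848699 to 7873186, minus strand). It had 1789, 1785 and 2083 normalised reads against 1524, 1110 and 1372. The labels did not overlap, and Otud1-/- 2 was the lowest library, as for Rel. The log2 change was -0.51 ± 0.14 SE (95% interval -0.82 to -0.19, limma, adjusted p = 0.108).

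Tnfaip3 encodes the protein A20, a ubiquitin-editing enzyme that shuts off signalling from these receptors (ENSMUSG00000019850.11, chromosome 10, 19000910 to 19015657, minus strand). It had 2968, 3034 and 3563 against 2569, 3006 and 1813. The groups overlapped, because Otud1-/- 2 lay between wild type 1 and 2 while Otud1-/- 3 was far lower (log2 change -0.40 ± 0.18 SE, limma, adjusted p = 0.269). Bcl3, another nuclear IkB protein, which joins homodimers of the small subunits, had 2593, 2405 and 1598 against 1884, 1609 and 1653 (ENSMUSG00000053175.17, chromosome 7, 19808462 to 19822770, minus strand). Here wild type 3 was the lowest of all 6 libraries, so the groups overlapped (log2 change -0.33 ± 0.18 SE, limma, adjusted p = 0.349). The antisense gene Gm16175, which overlaps Bcl3 exons, had a mean of only 10.1 normalised reads.

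The size of these differences depended on how libraries were scaled. Scaling to total reads moved the median of all genes to 0.22, and scaling to the summed epithelium list moved it to 0.52. After scaling to total reads the changes were -0.95 for Rel, -0.46 for Nfkbiz, -0.37 for Nfkbia and -0.30 for Birc3, while Nfkb1 (0.030), Rela (0.14) and Relb (0.020) turned positive. After scaling to the epithelium list the 3 genes with negative values were Rel (-0.64), Nfkbiz (-0.15) and Nfkbia (-0.059), and the other seven were positive. Measured from that shifted median under total-read scaling, Nfkbiz stood at -0.68, Nfkbia at -0.59, Rel at -1.17 and Rela at -0.078, which follows by construction from a single factor per library.

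**Figure D2:**
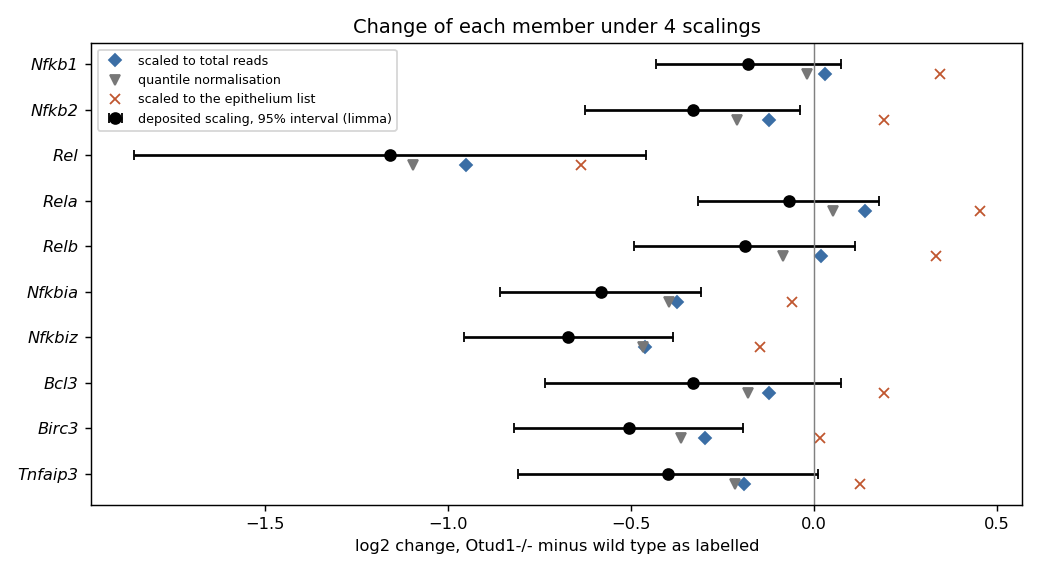
Log2 change of each gene (x axis, Otud1-/- minus wild type as labelled) with the deposited scaling (black, 95% interval from limma) and with 3 other scalings. Rel, Nfkbiz and Nfkbia are negative under all 4 scalings, and Rela is positive under 3 of them.

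A ratio of 2 genes in the same library is free of that choice. Rela was taken as the reference after its values were seen, as the member with the smallest change. Nfkbia had 1.85, 2.44 and 2.34 reads per Rela read in the wild type libraries and 1.58, 1.54 and 1.50 in the Otud1-/- libraries, so the groups did not overlap and the Otud1-/- libraries were nearly equal. Nfkbiz had 2.77, 3.50 and 2.84 against 1.61, 2.14 and 2.29. Rel had 0.851, 0.983 and 0.797 against 0.565, 0.254 and 0.482. Birc3 had 1.13, 1.28 and 1.41 against 1.01, 0.780 and 1.05, and Nfkb2 had 1.20, 1.05 and 1.01 against 0.914, 0.893 and 0.909. These 5 of 9 ratios were lower without overlap, as were 7.85% of the ratios of all 21267 genes set against Rela. The ratios of Nfkb1, Relb, Bcl3 and Tnfaip3 overlapped between the labels. Such ratios show unequal change within a library, not that Rela was constant.

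**Figure D3:**
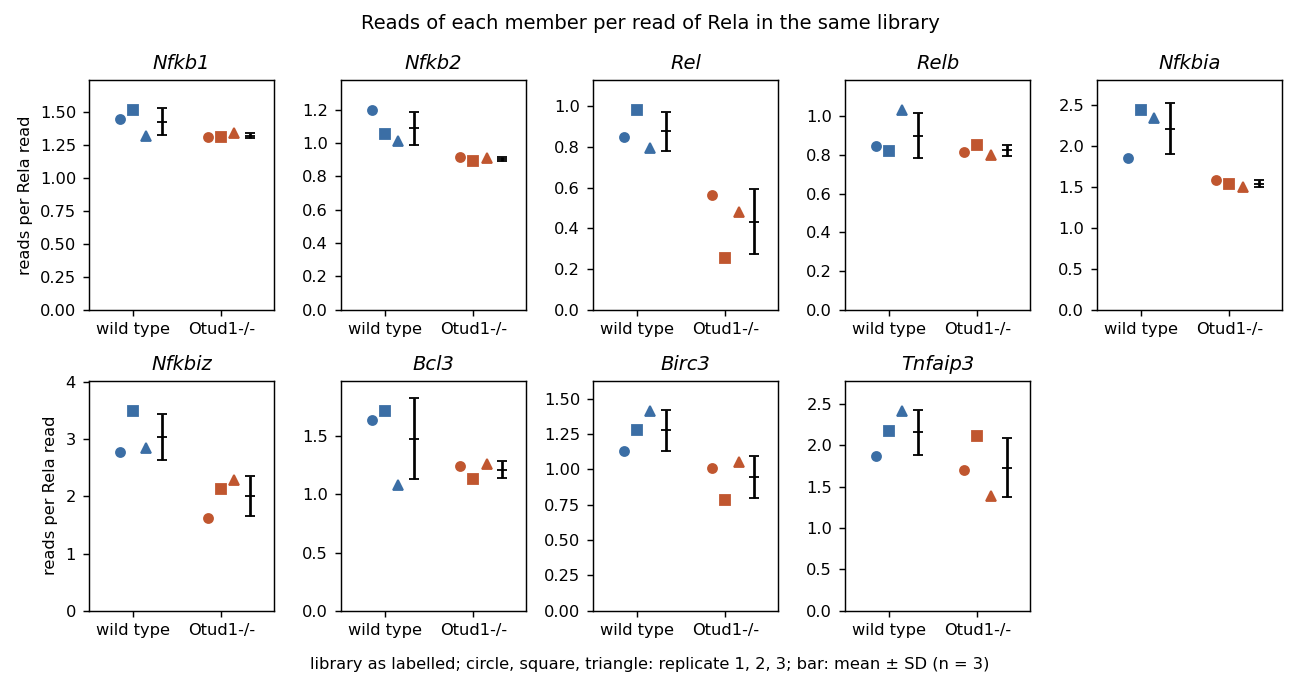
Reads of each of the other nine members per read of Rela in the same library (y axis, from 0), with points for libraries and bars for mean ± SD. Nfkb2, Rel, Nfkbia, Nfkbiz and Birc3 separate by label, and the Nfkbia ratio lies at 1.50 to 1.58 in the libraries labelled Otud1-/- against 1.85 to 2.44.

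Levels between genes were compared per kilobase of the principal coding transcript. In the libraries labelled wild type, Nfkbia was the most abundant with 2065 ± 180 normalised reads per kilobase (SD, n = 3). Bcl3 (1188 ± 286) and Nfkbiz (1091 ± 88.5) came next and did not differ beyond their spread. Tnfaip3 (721 ± 73.7) and Birc3 (707 ± 64.1) also did not differ beyond theirs. Relb (605 ± 85.1), Rela (546 ± 34.1), Nfkb2 (516 ± 76.3) and Nfkb1 (513 ± 42.6) lay close together within theirs. Rel was the least abundant at 174 ± 14.5. In the libraries labelled Otud1-/-, Nfkbia (1380 ± 138), Bcl3 (927 ± 80.0) and Nfkbiz (687 ± 80.4) again led and Rel was again last (82.4 ± 33.1), while Birc3 (501 ± 78.5) lay below Relb (529 ± 47.7) and Rela (521 ± 38.6), within the spread. This order depended on the length used. With the length of all annotated exons, Nfkbia stayed first in the wild type libraries, Nfkbiz (895) and Bcl3 (888) changed places, and Rela (483) came before Tnfaip3 (441) and Birc3 (376). Nfkb2 (353) and Relb (344) followed, and Nfkb1 went from 513 to 175, level with Rel at 174.

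Per kilobase, Rel made up 7.13%, 8.36% and 6.74% of the summed subunit transcripts in the wild type libraries, against 5.31%, 2.44% and 4.58% in the Otud1-/- libraries. All shares given here rest on the length of the principal coding transcript, and with the length of all annotated exons they would differ. The share of Rela was 23.2% ± 0.176 (SD, n = 3) and 26.2% ± 0.304. Shares of a sum move together, so the higher Rela share is not independent of the lower Rel share. The mean Nfkb2 share was also lower (21.8% and 20.5%), while those of Nfkb1 (21.8% and 22.7%) and Relb (25.7% and 26.5%) were higher.

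The rest of the pathway was described from 7 lists, chosen with earlier results of these data known. Counting each gene once, 101 other pathway genes were tested. Of these 5 fell (limma, adjusted p under 0.05), 0 rose and 80 had negative changes, with a median of -0.26 against 0.017 over all tested genes. Over all tested genes 0.667% fell, 0.282% rose and 48.3% had negative changes. For the counts by list that follow, 9.97% of all tested genes were lower at an unadjusted p under 0.05 (limma). Lower values without overlap were found for 13.3%. After scaling to the epithelium list 2 were called lower and 2 higher. The 5 with the deposited scaling were Zc3h12a, Tnip3, Nos2, Ccl20 and Il1b, the last of them named only after its values were seen. Leaving out wild type 1, 2 or 3 ended the call of each except Nos2 without wild type 1 (limma, adjusted p = 0.0397), with adjusted p-values of 0.0685 to 0.173. All 3 remaining IkB genes had lower values without overlap and none was called: Nfkbib changed by -0.34 ± 0.13 SE (limma, adjusted p = 0.198), Nfkbid by -0.57 ± 0.23 (0.216) and Nfkbie by -0.45 ± 0.20 (0.248).

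Upstream, none of 17 genes of the IKK complex and its kinases was called, with 14 negative changes, a median of -0.16 and 3 lower at an unadjusted p under 0.05. Ikbke, an IKK-related kinase, changed by -0.41 (limma, adjusted p = 0.0943) and Tank, an adaptor of that kinase, by -0.44 (0.110). Tab2, a ubiquitin-binding adaptor with the highest mean of the list, differed by -0.036 (0.882). Among 19 adaptors and signal ubiquitin ligases 0 were called, 17 were negative and the median was -0.28, with 6 lower at an unadjusted p under 0.05. Tradd, the adaptor of the tumour necrosis factor receptor, had 3110, 2681 and 3363 normalised reads against 1582, 2312 and 2137 and did not overlap (-0.61 ± 0.16 SE, limma, adjusted p = 0.0957). Ticam1, an adaptor of Toll-like receptors, changed by -0.58 (0.109), and Rbck1, a part of the linear ubiquitin ligase, by -0.097 (0.664).

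Of the ligands and receptors of the tumour necrosis factor family, 0 of 15 were called, 13 were negative and the median was -0.52, with 4 lower at an unadjusted p under 0.05. The receptors Tnfrsf1a and Tnfrsf1b came closest. Tnfrsf1a had 2559, 2530 and 2362 normalised reads against 1440, 1686 and 1838, and the groups did not overlap (-0.59 ± 0.12 SE, limma, adjusted p = 0.0552). Tnfrsf1b changed by -0.74 ± 0.15 (0.0601) and Ltbr, the lymphotoxin receptor, by -0.25 ± 0.11 (0.261).

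Among the A20 partners and other brakes, 2 of 17 fell, 13 were negative and the median was -0.11, with 5 lower at an unadjusted p under 0.05. Zc3h12a encodes a ribonuclease that degrades inflammatory transcripts, the Nfkbiz transcript among its known targets. It had 2891, 2630 and 2431 normalised reads against 1640, 1498 and 1665, well apart (-0.72 ± 0.11 SE, limma, adjusted p = 0.0301), and was called in 11 of 20 alternatives and lost without Otud1-/- 3 (0.0611). Tnip3, which encodes an A20-binding protein, had 1750, 1830 and 1653 against 1068, 1127 and 1270 (-0.60 ± 0.11 SE, limma, adjusted p = 0.0477), and was called in 4 of 20, with the call lost on leaving out any 1 library (0.0537 to 0.173). Tax1bp1, an adaptor of A20, was the most abundant of the list and changed by -0.54 ± 0.13 SE (limma, adjusted p = 0.0839).

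Of 31 target genes 3 fell and 0 rose, with 23 negative changes, a median of -0.29 and 10 lower at an unadjusted p under 0.05. Nos2, the inducible nitric oxide synthase, fell by 1.98, the chemokine gene Ccl20 by 1.32 and Il1b, the interleukin-1 beta gene, by 0.81 on the log2 scale (limma, adjusted p = 0.00857, 0.0318 and 0.0380). Il1b also lost its call without Otud1-/- 3 (limma, adjusted p = 0.0830). Pigr, the epithelial immunoglobulin transporter, had the highest mean and changed by -0.67 (0.0807). Wild type 1 held the highest value of all libraries for 11 of the 31 targets and the lowest for 7. Otud1-/- 1 held the highest for 8 and the lowest for 10. The neutrophil chemokine gene Cxcl2, named after its values were seen, had 122, 406 and 417 normalised reads against 1107, 223 and 226, so that library alone stood high.

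Of 10 genes listed as dependent on IkB zeta, 9 were tested, and Defb4 was not analysed here. Their changes had a median of 0.011, with 4 negative and 5 positive, and the 2 called, Ccl20 and Zc3h12a, fell. Of the 9, Csf2, Il1f9, Il6, Csf3 and Il12b had few reads, with wild type means of 2.64 to 16.9 normalised reads. Cxcl5, a neutrophil chemokine gene, had 420, 909 and 564 normalised reads against 1664, 421 and 382, with overlapping groups (0.11 ± 0.67 SE, limma, adjusted p = 0.953). Without Otud1-/- 1 its change was -0.58. Il1f9, the current Il36g, had 0, 7.52 and 9.18 against 39.3, 18.0 and 19.2, few reads that did not overlap (limma, adjusted p = 0.182). Il6 was low throughout, at 7.38, 10.3 and 9.18 against 7.68, 10.1 and 24.2 (limma, adjusted p = 0.666).

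**Figure D4:**
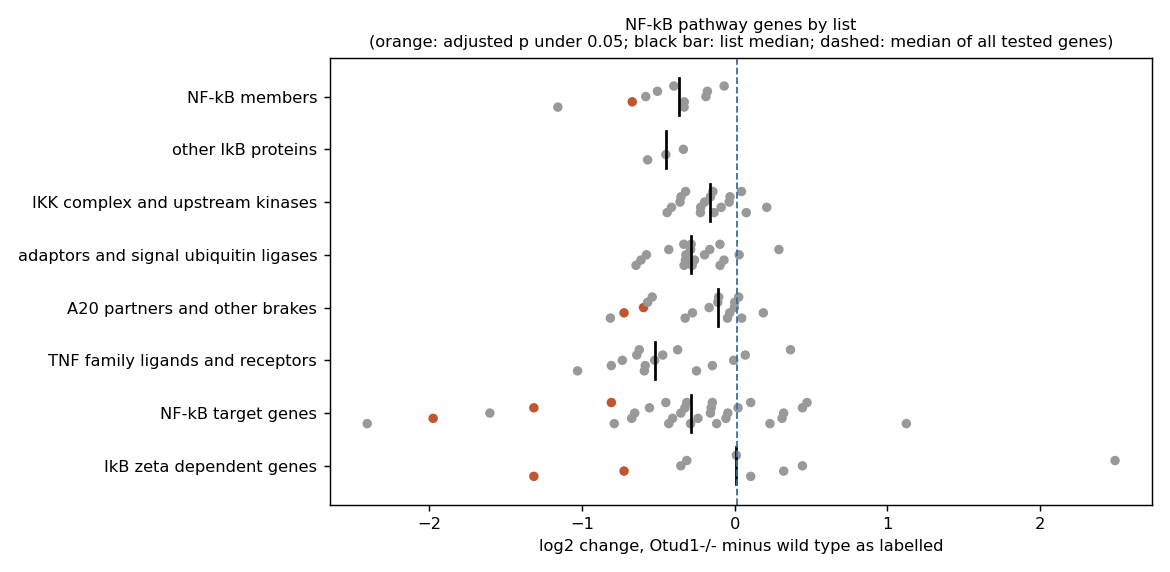
Log2 change (x axis, Otud1-/- minus wild type as labelled) of the 10 members and of the genes of 7 further pathway lists, 1 point per gene, with list medians as bars. Genes called by limma are orange, and the list medians run from -0.52 to 0.011 against 0.017 for all tested genes (dashed).

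Markers of cell types differed between the same libraries. All 10 macrophage and monocyte markers had negative changes, 9 at an unadjusted p under 0.05 and 0 called, and their summed normalised reads were 13812 to 16904 in the libraries labelled wild type and 8888 to 9532 in those labelled Otud1-/-. None was at 0 in any library. Neutrophil markers (5 of 7 analysed, without Mpo and Elane) summed to 7202 to 9960 and 2897 to 3594, with 3 negative, 2 positive and 1 called lower. That 1 gene, Ly6g, named after its values were seen, made up most of the sum, with means of 7337 and 2347. S100a8 (means of 820 and 262) and Csf3r (154 and 89.9) were also lower without overlap, though not called. S100a9 had means of 417 and 430 and Cxcr2 of 18.1 and 22.6. B and plasma cell markers, 9 of 9 negative and 0 called, summed to 27259 to 49125 and 14570 to 26201. Only 1 of these 9, Xbp1 (means of 7067 and 4594), was lower without overlap. Jchain held the largest part of the sum (means of 23295 and 12977), and its groups overlapped. T and NK cell sums overlapped (723 to 2136 and 582 to 1109), with Klrb1c at 0 in at least 1 library. Epithelial markers, 13 of 15 negative and 0 called, summed to 481511 to 572750 and 306443 to 465056. Smooth muscle markers, 11 of 11 positive and 4 called higher, summed to 37939 to 41831 and 62258 to 126927. Fibroblast sums overlapped, at 12924 to 15338 and 11939 to 16462, as did endothelial sums, at 1270 to 1861 and 1400 to 2081, with 0 called in either list. The part of these shifts in the values of the 10 genes was not tested.

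Single libraries differed in which gene was low. Rel was lowest in Otud1-/- 2, which had the highest smooth muscle sum (126927) and, of the 3 Otud1-/- libraries, the highest epithelium sum (465056). Of those 3, it also had the highest B and plasma cell (26201), T and NK cell (1109) and macrophage and monocyte (9532) sums. Its neutrophil sum (2964) was below that of Otud1-/- 3 (3594). Nfkbiz was lowest in Otud1-/- 1, where the epithelium sum (306443) and the B and plasma cell sum (14570) were lowest. The sums of T and NK cells (582), macrophages and monocytes (8888), neutrophils (2897) and fibroblasts (11939) were also lowest there. The smooth muscle and endothelial sums were not. Otud1-/- 3 held the lowest value for 6 of the 10 members. The summed feedback genes stood at 14666, 15523 and 14873 against 10814, 10962 and 9780, and the summed subunits at 8449, 7501 and 7597 against 6978, 6136 and 5916.

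**Figure D5:**
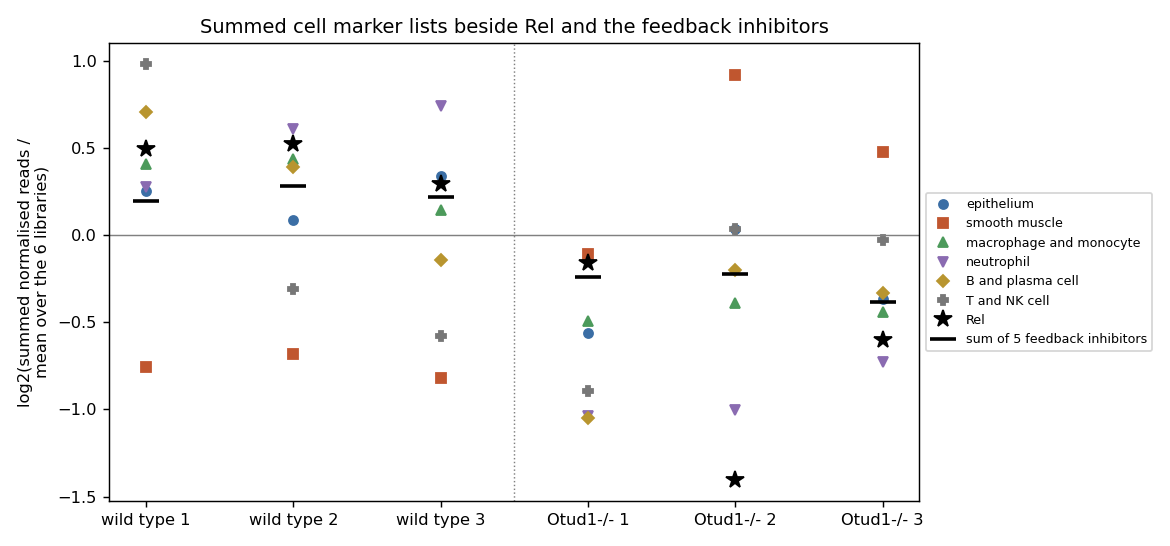
Summed normalised reads of 6 marker lists, of Rel and of the 5 feedback genes in each library, as log2 of the ratio to the mean over the 6 libraries (y axis). The feedback genes are above the mean in all libraries labelled wild type and below it in all labelled Otud1-/-, while the smooth muscle sum is higher in each Otud1-/- library than in any wild type library.

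Genes with the most similar profile were sought among 10919 protein-coding genes outside the lists with a mean of at least 100 normalised reads, by the root mean square difference of centred log2 values over the 6 libraries. The closest to Nfkbiz was Junb, which encodes a subunit of the transcription factor AP-1, with 9103, 10263 and 8485 normalised reads against 5259, 6739 and 6600 and a difference of 0.0466. The closest to Rel was Ffar4, a fatty acid receptor gene, at 0.129, and to Nfkbia it was Slc2a9, a urate transporter gene, at 0.0727. The closest to Birc3 was Aldoc (0.0271), to Tnfaip3 Cxcl16 (0.0854), to Bcl3 Wdfy2 (0.0582), to Nfkb1 Ncoa6 (0.0179), to Nfkb2 Cdkn2d (0.0427), to Rela Atxn7l3 (0.0236) and to Relb Hps4 (0.0329). With so many candidates over 6 libraries such closeness is a description only. Among the members themselves, Nfkb1 and Rela lay closest (0.0817), and Rel was far from every other member, with Birc3 the nearest at 0.424.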

How the data were processed

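RNA-seq of 6 libraries was analysed from 1 table that the authors deposited. The submitters' processing notes name the build mm10. Aligner, counter, strand setting and annotation release: not given in the sources used here. Its unit is a signal normalised per library by the authors, and in each column 100% of the deposited values were whole multiples of 1 step (tolerance 0.001 of a read), which gave back read counts, at least 10 per gene over the 6 libraries. Gene IDs were matched without version to GENCODE vM21 (GRCm38): 21336 matched and 38 did not. The filter kept genes whose value reached 1 in 3 or more libraries (21281, with 93 left out). The main test was limma 3.58.1 in R 4.3.3 (trend and robust) on log2(value + 1), two-sided, with the genotype label as its single term. Adjusted p-values are Benjamini-Hochberg over all tested genes and calls are those under 0.05. Named are all members, Otud1, the 2 smallest p-values and the highest mean of each pathway list, and the closest profile per member. Genes already named were passed over. Il1f9, Il6 and Cxcl5, for example, do not hold those ranks among all genes listed as dependent on IkB zeta. Il1b and Cxcl2 were added after their values were seen. Members and lists were chosen with earlier results of these data known. Other settings varied the filter, pseudocount (0.1 and 10), normalisation, limma's settings, the replicate block and single libraries. Added after seeing the data were the count tests (edgeR 4.0.16, DESeq2 1.42.0), epithelium scaling, and leaving out wild type 1 with Otud1-/- 1. Tested on simulated data, in 1 comparison of 3 against 3 over 21241 genes, limma recovered 82.0% of 2-fold and 100% of 4-fold changes, and 5 of its 187 calls were unchanged genes. The simulation gave every gene the same dispersion and changed only well-expressed genes. Its rates therefore check the code and are not the power in these libraries.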

Additional observations from a re-analysis of the deposited data

How the results depend on the processing

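Of 200 member results under 20 alternatives, 166 kept direction and side of the threshold, 8 gained the call, 15 lost it (all Nfkbiz) and 11 reversed. The count of called genes was 202, with 122 at a mean filter of 5, 118 at a pseudocount of 0.1, 416 scaled to total reads, 0 by limma without trend and robust, 564 with sample weights, 62 and 65 by edgeR (TMM and median-of-ratios factors), 1413 by DESeq2, 393 without wild type 1 and Otud1-/- 1 together, 2600 scaled to the epithelium list, and 10 to 351 with 1 library left out. The member count was 1, with 0 under the mean filter, both pseudocounts, quantile normalisation, total-read and epithelium scaling, plain limma and both edgeR fits, 3 with sample weights and DESeq2, and 0 to 3 with 1 library left out. Without wild type 1 and Otud1-/- 1 together it was 1, and that gene was Nfkbia. The count of other pathway genes was 5, with 3 under quantile and total-read scaling, 0 by plain limma, 9 with sample weights, 2 by both edgeR fits, 15 by DESeq2, 8 without wild type 1 and Otud1-/- 1 together, and 0 to 8 with 1 library left out. Under epithelium scaling it was 4, of which 2 were lower and 2 higher, and 1 was among the 5. With the replicate number as a block, 18 genes, 0 members and 1 other pathway gene were called. Same-numbered libraries deviated from the means of their labels with correlations of -0.26, -0.10 and -0.09. These values show no pairing by number but, with so few libraries per label, cannot exclude one.

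After scaling to the epithelium list these changes reversed: Nfkb1 0.34, Nfkb2 0.19, Rela 0.45, Relb 0.33, Bcl3 0.19, Birc3 0.018, Tnfaip3 0.13, Nfkbib 0.19, Nfkbie 0.071, Ikbke 0.11, Tank 0.081, Tab2 0.49, Rbck1 0.43 and Ltbr 0.27. Scaling to total reads reversed Nfkb1 (0.030), Rela (0.14), Relb (0.020), Tab2 (0.17) and Rbck1 (0.11), and quantile normalisation reversed Rela (0.052), Tab2 (0.13) and Rbck1 (0.083). With 1 library left out, Il6 ranged from -0.0096 (without Otud1-/- 3) to 0.76 and Cxcl5 from -0.58 (without Otud1-/- 1) to 0.48, also negative without wild type 1 (-0.15). Cxcl5 was -0.35 with sample weights and -0.83 without wild type 1 and Otud1-/- 1 together. Of the called genes 142 of 202 were lower, against 103 of 416 scaled to total reads and 98 of 2600 scaled to the epithelium list. Apart from the scalings, whose factors set these shifts, the cause was not tested.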
